A study of Mus musculus with 2 samples.

Results

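NK cells of LLC tumors were taken from single-cell RNA-Seq by a gate on raw counts of unique molecular identifiers (UMIs, distinct captured RNA molecules). A cell was a member when at most 10% of its UMIs came from mitochondrial genes, Ncr1, Klrb1c and Klre1 together had at least 3 UMIs, Cd3d, Cd3e and Cd3g together had at most 1 UMI, and C1qa, C1qb and C1qc together had at most 5 UMIs. The gate found 111 NK cells among 5167 cells, 58 in the library labelled wt and 53 in the library labelled cko. Ncr1 (NKp46) lies on chromosome 7 (4337724 to 4345164, GRCm38), and Klrb1c (NK1.1; 128778485 to 128789215) and Klre1 (129577905 to 129585827) lie in the NK gene complex on chromosome 6. These gate genes were measured on the same cells, so their high or low levels in the members describe the gate and are not a result.

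NK cells are innate lymphocytes that kill target cells without rearranged antigen receptors. They read MHC class I and stress ligands through activating and inhibitory receptors, many of which are C-type lectins encoded side by side in the NK gene complex. On activation they release perforin and granzymes, display death ligands such as FasL and secrete IFN-γ and chemokines. In tumors, cytokines such as IL-12, IL-15 and IL-18 drive them, and TGF-β restrains them.

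The data came from CD45+ cells of s.c. LLC tumors, a mouse lung carcinoma line grown for 14 days in C57BL/6 mice that were 8 weeks old at implantation and are listed at an age of 10 weeks. The library labelled wt stands by its title for miR-21fl/fl mice and the library labelled cko for LysMCre;miR-21fl/fl mice, so all mice carried the floxed miR-21 allele. LysMCre sits in Lyz2 and deletes in macrophages and granulocytes, whereas NK cells are not a cell type in which it is known to act. Each library is a single pool of cells from 3 mice, so there is no replicate, no test between genotypes and no p-value, and genotype cannot be told apart from pool or library. The source descriptions assign the genotypes the other way around from the titles, and the growth protocol names a macrophage sort where the design text names CD45+ cells. The libraries are therefore called by their titles. Lyz2, the locus that carries Cre, was at 16179 CPM (its UMIs scaled to the total UMIs of the cell class) in C1q-rich macrophages of the library labelled wt and at 7447 CPM in those labelled cko. Mir21a was not analysed here.

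Depth per NK cell was similar in both libraries. The median NK cell labelled wt had 7330.5 UMIs and 2228.5 genes, with UMIs from 3198 to 43935. The median NK cell labelled cko had 6184 UMIs and 2114 genes, with UMIs from 3195 to 21918. Summed over the members this gave 532380 and 432994 UMIs. A single cell labelled wt held 8.25% of the UMIs of its group, and the deepest cell labelled cko held 5.06%. Mitochondrial UMIs had medians of 1.70% and 1.75%. The libraries shared 5 cell barcodes, none of them of an NK cell.

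Few cells lay at the edges of the gate. The summed UMIs of Ncr1, Klrb1c and Klre1 had a median of 18 in members labelled wt and 15 in members labelled cko. Just inside the lower edge, at 3 UMIs, lay 1 cell per library, and just outside it, at 2 UMIs, lay 3 cells per library. At the T cell edge, 3 members labelled wt and 6 labelled cko had 1 Cd3 UMI, and 1 cell per library was kept out with 2 Cd3 UMIs. Most cells beyond that edge had many Cd3 UMIs, as the plot of the gate shows, and 58 and 71 cells carried NK receptor UMIs together with Cd3 above the limit. The C1q limit kept out 2 cells labelled wt and 1 labelled cko, and the mitochondrial limit kept out none.

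**Figure D1:**
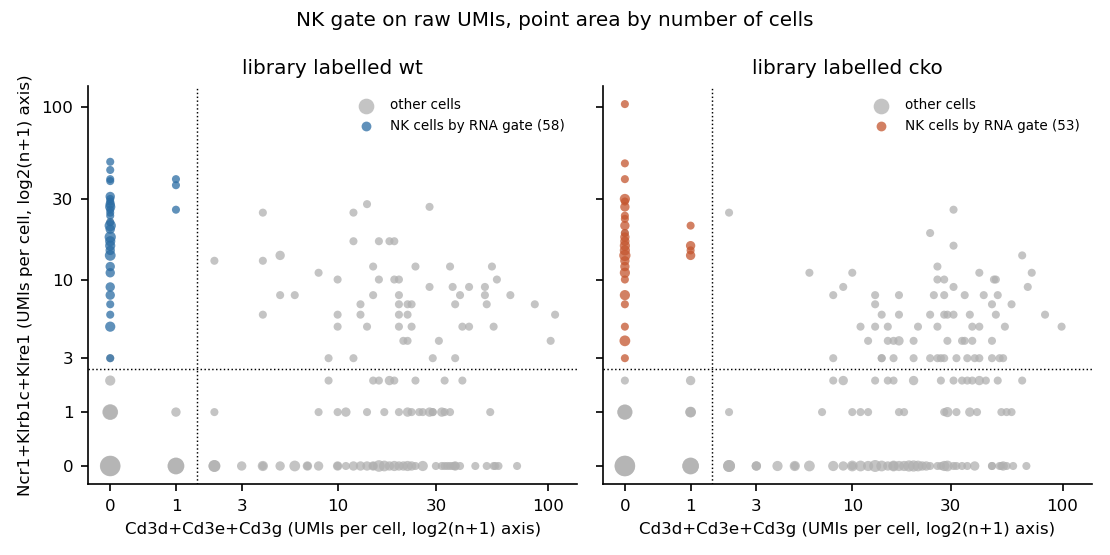
Summed UMIs of Ncr1, Klrb1c and Klre1 (y axis) against summed UMIs of Cd3d, Cd3e and Cd3g (x axis) per cell in each library, both on a log2(n+1) axis, with point area by number of cells and dotted lines at the gate. The 58 and 53 NK cells lie in the upper left, and the cells with both kinds of UMIs extend to the right of the Cd3 limit.

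The identity of the gated cells was examined with NK genes that the gate did not use. Nkg7, a granule membrane protein, was seen in 57 of 58 members labelled wt and in 53 of 53 labelled cko, at 2387 and 2806 CPM against 7.57 and 7.33 CPM in macrophages. The macrophages were chosen without UMIs of Cd3 or of the gate's NK receptors. Klrd1 (CD94), the partner chain of the NKG2 receptors, was seen in 57 and 52 cells. Klrk1 (NKG2D), the receptor for stress ligands, was seen in 57 and 53 cells. Il2rb, the β chain that IL-2 and IL-15 share, was seen in 54 and 52 cells, and the kinase Txk in 51 and 49. Cytotoxic CD8 T cells carry these genes too, with Klrd1 in 33 of 35 and 44 of 45 CD8 T cells and Il2rb in 27 and 33, so they set the members apart from macrophages rather than from T cells.

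Lineage factors of NK cells were seen in part of the members, and genes listed for the related tissue-resident ILC1s differed in how often they were seen. Eomes, the T-box factor that conventional NK cells keep, had UMIs in 25 cells labelled wt and 22 labelled cko, with 0.24 and 0 CPM in macrophages. Tbx21 (T-bet) had UMIs in 26 and 23 cells. Both factors were seen together in 11 cells of each library and neither in 18 and 19 cells, at a depth at which a low transcript is often missed. Of the ILC1 genes, Itga1 was seen in 2 and 1 cells, Cxcr6 in 4 and 6, Il7r in 7 and 6, and Zfp683 in none, whereas Tnfrsf9 (4-1BB) was seen in 44 and 39 cells, Il21r in 21 and 10 and Tmem176b in 13 and 11. Itga2, which encodes the NK surface antigen DX5/CD49b, was itself seen in only 1 and 2 cells, so these integrins do not separate the types here. B cell markers gave 1 UMI over all members and ILC2 markers none.

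**Figure D2:**
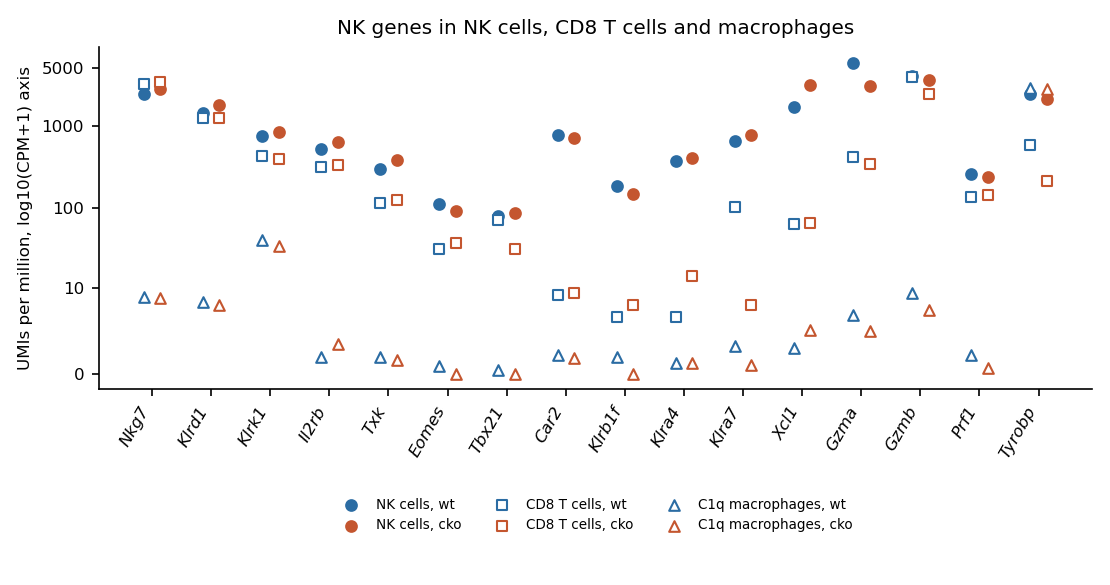
CPM of NK genes (y axis, log10(CPM+1)) in NK cells (filled circles), CD8 T cells (open squares) and C1q-rich macrophages (open triangles) of the library labelled wt (blue) and the library labelled cko (orange). Eomes, Txk and Xcl1 are near 0 in macrophages, Car2, Klra4 and Klrb1f are also low in CD8 T cells, and Nkg7 and Klrd1 are at like levels in NK and CD8 T cells.

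Some members also held RNA of another lineage. With a limit of 0.4% of a cell's UMIs from the markers of another lineage, chosen after the values were seen, 6 members labelled wt and 3 labelled cko exceeded it. In the library labelled wt these were 3 cells with macrophage or monocyte RNA, 1 with neutrophil RNA, 1 with dendritic cell RNA and 1 with plasmacytoid dendritic cell RNA. In the library labelled cko they were 2 cells with macrophage or monocyte RNA and 1 with neutrophil RNA. The neutrophil markers reached 613 UMIs in the 1 cell labelled wt and 1101 UMIs in the 1 cell labelled cko. Below the limit, the next-highest macrophage share was 0.220% in the library labelled wt and 0.112% in the library labelled cko.

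NK cells were set beside CD8 T cells, another cytotoxic class (35 and 45 cells, medians of 5753 and 6513 UMIs). The CD8 T cells were chosen by Cd3 and Cd8 UMIs and with at most 1 UMI of the gate's NK receptors. Both classes were chosen on these RNA counts, so the comparison is a description. Of 1958 genes with at least 50 UMIs in each library, 53 (2.71%) were at least 2-fold higher in NK cells in both libraries and 21 (1.07%) were at least 2-fold lower in both. The NK identity list had 10 of 19 genes at least 2-fold higher in both libraries, the inhibitory lectin receptors had 4 of 6, the activating receptors had 7 of 18 and the cytotoxic granule list had 6 of 18. Among checkpoint receptors 2 of 4 genes were lower in NK cells, and among interferon-stimulated genes 4 of 21. Because the gate itself asks for NK lectins and against Cd3, these shares describe the gate as well as the cells.

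Car2, a cytosolic carbonic anhydrase, had the largest ratio of those named, by the library where it was smaller, with 772 CPM in NK cells against 7.87 CPM in CD8 T cells labelled wt and 711 against 8.60 CPM labelled cko. After every cell was thinned to 3000 UMIs, Car2 was seen in 58.6% and 67.9% of NK cells, in 2.86% and 2.22% of CD8 T cells and in 0.31% and 0.12% of macrophages, whose median depths were 11376 and 10992 UMIs. Xcl1, the chemokine that attracts XCR1+ dendritic cells, stood at 1679 against 63.0 CPM labelled wt and at 3127 against 65.9 CPM labelled cko. Spp1 (osteopontin), a secreted matrix protein and cytokine, stood at 3817 against 224 CPM and at 3058 against 100.4 CPM. These sums were uneven over NK cells. Xcl1 was seen in 36 and 29 NK cells, with 60.2% and 61.3% of its UMIs in 3 cells, and Spp1 in 38 and 25, with 61.5% and 70.2% in 3 cells.

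Lectin receptors formed the other large group. Klra4 (Ly49D), an activating receptor, was at 378 against 3.93 CPM labelled wt and at 406 against 14.3 CPM labelled cko. Klrb1b, Klra9 and Klrb1a had no UMI in CD8 T cells of either library. With a floor of 3 counts over the CD8 T cells, they were at least 14.2-fold, 10.5-fold and 10.5-fold higher in NK cells labelled wt. The sodium pump subunit Atp1b1 was also higher in NK cells, with log2 ratios of 3.37 and 4.42.

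Genes lower in NK cells than in CD8 T cells included Cxcr6, Lat, Cd247 and Pdcd1. Cxcr6, the receptor for CXCL16, had log2 ratios of −4.68 labelled wt and −4.03 labelled cko. Lat, the adaptor of the T cell receptor complex, had −3.05 and −2.76. Cd247, the ζ chain of that complex and also counted in the list of activating receptors and adaptors, had −1.43 and −1.37. Pdcd1 (PD-1) had −4.60 (interval, −5.96 to −3.49) labelled wt and −1.61 (interval, −2.02 to −1.21) labelled cko. PD-1 RNA was therefore lower in NK cells than in CD8 T cells in both libraries, by a smaller ratio in the library labelled cko. All intervals in the text are exact 95% intervals for counting error only, and do not cover the spread between mice, pools or cells.

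Ly49 receptors (Klra genes), many of which read MHC class I, were expressed by different NK cells in different combinations. Klra2 and Klra17 were left out after their levels were seen, because Klra2 was found in 40.4% and 45.8% of macrophages thinned to 3000 UMIs and Klra17 in 5.95% and 7.16%. Each of the other Klra genes was found in at most 0.626% of thinned macrophages. Klra7 (Ly49G) had the most UMIs and was seen in 29 of 58 cells labelled wt (348 UMIs) and 24 of 53 labelled cko (334 UMIs). Klra4 was seen in 23 and 26 cells, Klra1 (Ly49A) in 19 and 20, and Klra9 (Ly49I) in 18 and 14. Klra8 (Ly49H), the activating receptor known for recognizing mouse cytomegalovirus, was seen in 14 and 11 cells. Fewer cells carried Klra5 (11 and 3), Klra3 (9 and 8), Klra10 (5 and 4) and Klra6 (1 and 2). These genes are near-identical copies, so their UMIs may be split or misassigned between them.

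A single cell carried from 0 to 7 Klra genes. The median was 2 in both libraries, 13 cells labelled wt and 16 labelled cko had none, and the highest number was 6 and 7. Klrc1 (NKG2A), the inhibitory receptor for the nonclassical molecule Qa-1, was set beside the unthinned count. In the library labelled wt, 35 cells (60.3%; interval, 46.6 to 73.0) had both Klrc1 and a Klra gene, 12 had Klrc1 only, 10 had a Klra gene only and 1 had neither. In the library labelled cko, 15 cells (28.3%; interval, 16.8 to 42.3) had both, 16 had Klrc1 only, 22 had a Klra gene only and none had neither. Nearly every NK cell, 110 of 111, thus carried RNA of Klrc1 or of a counted Klra gene, a set that also holds Klra8.

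These intervals are over cells of 1 library each and do not compare the genotypes. After thinning to equal depth the cells with both were 24 of 58 cells (41.4%; interval, 28.6 to 55.1) against 9 of 53 (17.0%; interval, 8.07 to 29.8), with intervals that meet. Klrc1 itself was at 471 and 383 CPM (log2 ratio −0.30; interval, −0.59 to −0.01). Thinned cells with Klrc1 or a Klra gene made up 96.6% and 100% of NK cells, 60% of CD8 T cells in both libraries, and 1.25% and 1.07% of macrophages. Cells with both Cd3 and NK receptor UMIs had 93.1% and 88.7%, so a high share was not particular to the Cd3-poor cells.

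Granzymes are the serine proteases that enter target cells through perforin pores. Gzma lies on chromosome 13, and Gzmb, Gzmc, Gzmd, Gzme, Gzmf and Gzmg lie together on chromosome 14. The 250 bases before the RefSeq start sites of Gzma, of Gzmb, of Gzmc and Gzmd from the neighbouring cluster, and of the gate gene Ncr1 are printed because the granzymes divided the NK cells into states (GRCm38.p6, 5′ to 3′, on the strand of the gene). Capitals mark matches on either strand to the RUNX letters TGTGGT, the T-box letters GTGTGA and the AP-1 letters TGANTCA.
Gzma (chr13:113100982-113101231, minus strand): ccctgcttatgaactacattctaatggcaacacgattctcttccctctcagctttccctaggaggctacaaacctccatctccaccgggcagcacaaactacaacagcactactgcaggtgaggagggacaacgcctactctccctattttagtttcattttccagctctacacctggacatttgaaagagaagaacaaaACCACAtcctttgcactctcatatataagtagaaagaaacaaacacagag
Gzmb (chr14:56262335-56262584, minus strand): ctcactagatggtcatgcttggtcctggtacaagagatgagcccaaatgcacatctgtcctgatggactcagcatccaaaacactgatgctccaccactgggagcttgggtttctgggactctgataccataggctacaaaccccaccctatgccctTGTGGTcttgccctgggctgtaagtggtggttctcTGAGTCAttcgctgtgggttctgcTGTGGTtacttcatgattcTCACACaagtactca
Gzmc (chr14:56234658-56234907, minus strand): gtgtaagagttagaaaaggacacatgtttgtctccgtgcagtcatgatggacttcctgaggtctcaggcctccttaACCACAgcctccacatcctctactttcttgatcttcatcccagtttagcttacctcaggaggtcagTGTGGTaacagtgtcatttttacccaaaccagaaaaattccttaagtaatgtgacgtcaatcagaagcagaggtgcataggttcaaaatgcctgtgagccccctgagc
Gzmd (chr14:56132594-56132843, minus strand): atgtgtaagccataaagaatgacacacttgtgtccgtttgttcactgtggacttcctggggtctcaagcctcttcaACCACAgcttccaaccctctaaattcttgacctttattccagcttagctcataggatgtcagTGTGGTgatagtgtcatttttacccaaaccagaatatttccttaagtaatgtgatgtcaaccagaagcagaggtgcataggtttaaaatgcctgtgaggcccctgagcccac
Ncr1 (chr7:4337465-4337714, plus strand): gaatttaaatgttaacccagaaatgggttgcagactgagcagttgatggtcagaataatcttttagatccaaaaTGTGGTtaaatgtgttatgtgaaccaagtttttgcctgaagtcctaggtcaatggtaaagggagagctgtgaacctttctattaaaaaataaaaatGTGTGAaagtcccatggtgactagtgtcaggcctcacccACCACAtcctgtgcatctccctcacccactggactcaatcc

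RUNX and T-box factors are known regulators of cytotoxic lymphocytes. The RUNX letters stood in each of the 12 promoters examined (Gzma to Gzmg, Ncr1, Klrb1c, Klre1, Xcl1 and Nkg7), and in 14.0% of the 32851 RefSeq promoters of the same length. Gzmb, Ncr1, Xcl1 and Nkg7 also held the T-box letters, which 12.3% of all promoters held. Gzmb alone of these 12 held the AP-1 letters (6.75% of all promoters), and Nkg7 alone held the STAT letters TTCNNNGAA (7.02%). With 1 start per gene, the RUNX letters were in 14 of 22 promoters of the cytotoxic granule list (63.6%), in 8 of 22 of the activating receptor list (36.4%) and in 2 of 24 of the cell cycle list (8.33%), against 14.2% of 27025 genes. Lists with a promoter for a smaller part of their genes had them in 7 of 14 (NK identity, 50%), 3 of 11 (inhibitory lectin receptors, 27.3%) and 4 of 24 (interferon-stimulated genes, 16.7%). None of the 4 motifs overlapped another in the printed promoters. A match is a description of letters and not a measured binding site.

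Promoters of the Gzmc to Gzmg genes were alike. Their pairwise identity ran from 71.7% to 94.8%, highest between Gzmd and Gzme, whereas Gzma and Gzmb were 49.8% to 53.8% identical to one another and to the other granzymes. UMIs of Gzmc to Gzmg may likewise be split between near-identical transcripts, and values for single members are uncertain.

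Granzyme RNA was spread very unevenly over the NK cells. Gzma was seen in 40 of 58 cells labelled wt and 35 of 53 labelled cko, and its level per cell ran from 0 to 30488 CPM with a median of 2303 CPM labelled wt, and from 0 to 32902 CPM with a median of 414 CPM labelled cko. Gzmb was the most widespread, in 53 and 42 cells, with cell medians of 965 and 1278 CPM. Gzmc was seen in 30 and 25 cells, and its highest cell held 30.5% and 23.4% of all Gzmc UMIs. Gzmd was seen in 19 and 8 cells and Gzme in 16 and 6. Gzmf and Gzmg were each seen in 4 cells per library, and 1 cell labelled wt held 99.0% of the Gzmg UMIs of its group. After thinning, Gzmc was found in 50% and 41.5% of NK cells, in 5.71% and 15.6% of CD8 T cells and in 1.25% and 0.358% of macrophages.

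Cells rich in Gzmc to Gzmf and cells rich in Gzma and Ccl5 overlapped only in part. With genes and thresholds chosen after the values were seen, a thinned cell counted as positive for a set when the set had at least 2 UMIs. In the library labelled wt, 12 cells (20.7%) had Gzmc to Gzmf only, 26 (44.8%) had Gzma or Ccl5 only, 14 (24.1%; interval, 13.9 to 37.2) had both and 6 (10.3%; interval, 3.89 to 21.2) had neither. In the library labelled cko, 11 cells (20.8%) had Gzmc to Gzmf only, 23 (43.4%) had Gzma or Ccl5 only, 4 (7.55%; interval, 2.09 to 18.2) had both and 15 (28.3%; interval, 16.8 to 42.3) had neither. The exclusive states had like shares in both libraries. The share with both sets was lower and the share with neither was higher in the library labelled cko, and the intervals of the libraries overlap in both cases. With a threshold of 1 UMI the share with both sets was 34.5% in the library labelled wt and 26.4% in the library labelled cko.

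Cells of the Gzmc to Gzmf state were deeper than those of the Gzma or Ccl5 state. Their median was 8581.5 UMIs labelled wt and 10311 UMIs labelled cko, against 4842.5 and 4733 UMIs in the Gzma or Ccl5 state, and cells with both sets had 9805.5 and 7804.5 UMIs. The part of cell size and of depth in these states was not tested.

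**Figure D3:**
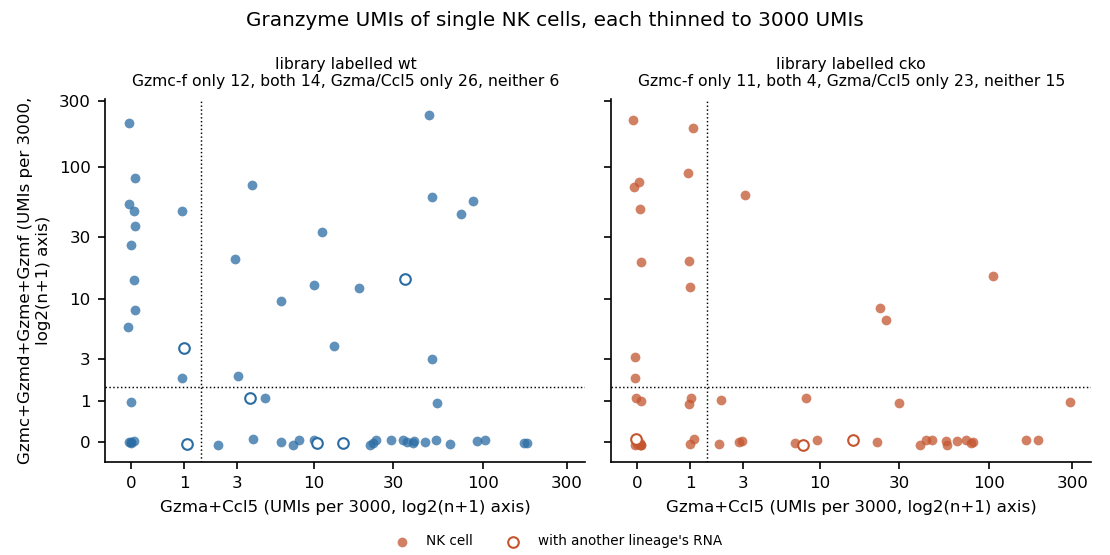
Summed Gzmc, Gzmd, Gzme and Gzmf UMIs (y axis) against summed Gzma and Ccl5 UMIs (x axis) of single NK cells thinned to 3000 UMIs, both on a log2(n+1) axis, with dotted lines between 1 and 2 UMIs. Points of both libraries follow both axes, and the upper right field holds 14 cells labelled wt and 4 labelled cko, while open circles mark cells with RNA of another lineage.

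Genes that did not set the states were compared between both states without the cells that held RNA of another lineage, which left 11 and 23 cells labelled wt and 11 and 21 labelled cko. Of 1436 genes with at least 20 UMIs in each library, 29 (2.02%) were at least 2-fold higher in the Gzmc to Gzmf state in both libraries and 26 (1.81%) were at least 2-fold lower in both. Counted without the top cell of each gene per library, 12 of the 29 and 20 of the 26 kept a 2-fold ratio in both. AA467197 had 470 CPM in the Gzmc to Gzmf state against 8.30 CPM in the Gzma or Ccl5 state labelled wt, and 343 against 18.2 CPM labelled cko. In each library it was seen in 9 of 11 cells of the first state and in 1 cell of the second. Spp1 stood at 3499 against 357 CPM and at 6726 against 1482 CPM, and 1 cell held 59.5% of its UMIs in the Gzmc to Gzmf state labelled cko, without which the ratio there was 2.20-fold. Ifitm2, an interferon-induced membrane protein, stood at 1346 against 199 CPM and at 1177 against 182 CPM. Gadd45g, a stress-response gene, stood at 1229 against 66.4 CPM and at 454 against 72.7 CPM, and 1 cell held 89.2% of its UMIs in that state labelled wt, without which the ratio there was 2.62-fold.

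Lag3, S100a4 and Hilpda were also higher in the Gzmc to Gzmf state. Lag3, an inhibitory checkpoint receptor, was at 360 against 83.0 CPM labelled wt and at 261 against 90.9 CPM labelled cko. S100a4, a calcium-binding protein of motile cells, was at 634 against 66.4 CPM and at 358 against 136 CPM. Hilpda, a hypoxia-induced lipid droplet protein, was at 157 against 16.6 CPM and at 864 against 81.8 CPM, with log2 ratios of 2.47 and 2.66 without its top cells. It was seen in 4 cells of the Gzmc to Gzmf state in each library, and in 1 cell labelled wt and 5 cells labelled cko of the Gzma or Ccl5 state.

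Klf2, Fasl, Fos and Ms4a4b had more RNA in the Gzma or Ccl5 state. Klf2, a transcription factor of resting and recirculating lymphocytes, was at 647 against 23.5 CPM labelled wt and at 927 against 89.4 CPM labelled cko. It was seen in 21 of 23 and 18 of 21 cells of this state and in 3 of 11 and 6 of 11 cells of the Gzmc to Gzmf state, although the latter were deeper. Fasl, the death ligand, was at 199 against 47.0 CPM and at 218 against 96.8 CPM, and without its top cells the log2 ratios of the Gzmc to Gzmf over the Gzma or Ccl5 state were −2.02 and −0.90. Fos was at 207 against 7.83 CPM and at 327 against 89.4 CPM. The membrane protein gene Ms4a4b was at 2888 against 1339 CPM and at 3454 against 849 CPM, with −0.95 and −1.98 without its top cells. Ccl4, an inflammatory chemokine, was at 614 against 15.7 CPM and at 4309 against 112 CPM, but only 6 and 4 cells of this state carried it.

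NK cells made up similar shares of the libraries. They were 58 of 2445 cells (2.37%; interval, 1.81 to 3.06) labelled wt and 53 of 2704 cells (1.96%; interval, 1.47 to 2.56) labelled cko, a ratio of 0.826 with an interval of 0.558 to 1.22.

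Gene levels were then compared between the NK cells of both libraries as log2 ratios of CPM, cko over wt. Of 2635 genes with at least 50 UMIs in the NK cells of both libraries together, 27 (1.02%) were at least 2-fold higher in the library labelled cko and 67 (2.54%) at least 2-fold lower, and the median over all these genes was 0.01. This is a size and not a test. Many of the 67 lower genes rested on few cells. Without the cells that held RNA of another lineage 37 of the 67 lower genes kept a 2-fold ratio, and 41 kept it when each gene was counted without its top cell per library, with no new limit on UMIs. For the 27 higher genes the numbers were 21 and 19.

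**Figure D4:**
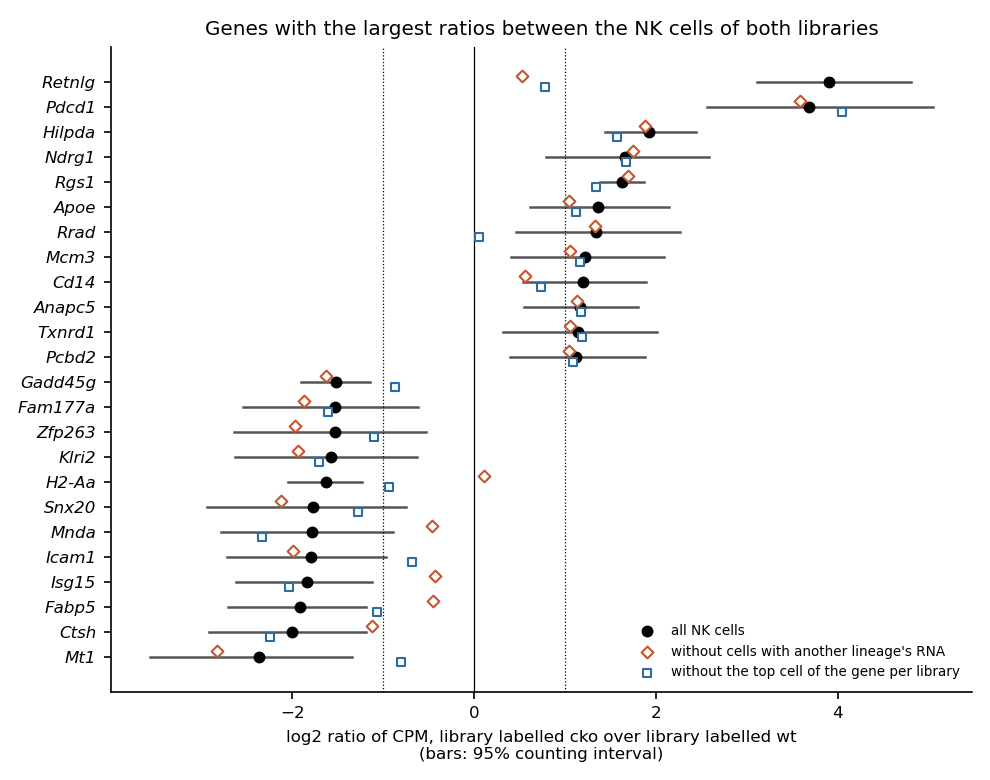
Log2 ratio of CPM (x axis, cko over wt) of the 12 genes with the highest and the 12 with the lowest ratio among genes with UMIs in at least 10 NK cells of the higher library, with 95% counting intervals (bars), without cells that held RNA of another lineage (diamonds) and without the top cell of the gene per library (squares). Pdcd1, Hilpda, Ndrg1 and Rgs1 keep ratios above 1 in all 3 versions, whereas Retnlg, Isg15, Fabp5 and H2-Aa fall inside the 2-fold lines (dotted) without the cells of another lineage's RNA.

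Pdcd1, which encodes the checkpoint receptor PD-1 (chromosome 1, 94038305 to 94052553), had 7 UMIs in 5 cells labelled wt and 73 UMIs in 11 cells labelled cko (13.1 and 169 CPM; log2 ratio 3.68; interval, 2.57 to 5.04). Of the UMIs labelled cko, 60.3% lay in 3 cells. The ratio was 4.05 without the top cell per library, 3.58 without cells of another lineage's RNA and 2.65 as a ratio of mean cell CPM. At equal depth Pdcd1 was seen in 5.17% and 15.1% of NK cells, in 40% and 55.6% of CD8 T cells, and in 0.78% and 0.24% of macrophages. Of the Pdcd1+ cells, none labelled wt and 3 labelled cko also had a Cd3 UMI.

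Ctla4, another checkpoint receptor, had 9 UMIs in 4 cells labelled wt and 36 UMIs in 11 cells labelled cko (log2 ratio 2.30; interval, 1.22 to 3.54). Cells with both Pdcd1 and Ctla4 numbered 0 and 5. The cell labelled cko with the most Pdcd1 had 21 Pdcd1, 12 Ctla4, 614 Gzmf and 373 Gzmg UMIs among 18490, and no Cd3d, Cd3e, Cd3g or Cd8a UMI. The same cell held 27.1% of the Rgs1, 39.4% of the Hilpda and 65.7% of the Rrad UMIs of the NK cells labelled cko, so these ratios rest in part on the same cell. Of 5 checkpoint genes with enough UMIs 3 were above 0, with a median of 0.08. Lag3 had 220 and 180 CPM (log2 ratio −0.29; interval, −0.72 to 0.14) and Cd96 had 67.6 and 71.6 CPM. Ctla4 fell short of the 50 UMIs and was named after its value was seen. Havcr2 (TIM-3), also under that limit, went the other way, with a log2 ratio of −0.98 that was 0.03 without the deepest cell of each library.

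Rgs1, which damps chemokine receptor signals, had 368 CPM in NK cells labelled wt and 1134 CPM in those labelled cko (log2 ratio 1.62; interval, 1.38 to 1.87). Without thinning it was seen in 37 and 38 cells, and 59.9% of its UMIs labelled cko lay in 3 cells. The Rgs1 ratio was 1.34 without its top cells. At equal depth Rgs1 was seen in 39.7% and 62.3% of NK cells and in 20.8% and 37.4% of macrophages. Rgs1 was also higher in the library labelled cko in CD8 T cells (142 and 310 CPM) and in macrophages (110 and 236 CPM). Hilpda had 86.4 and 328 CPM (log2 ratio 1.92; interval, 1.44 to 2.44), with 81.0% of its UMIs labelled cko in 3 of 18 cells and a ratio of 1.58 without its top cells. Ndrg1, a stress gene also induced by hypoxia, had 30.1 and 94.7 CPM (log2 ratio 1.66; interval, 0.79 to 2.59). In CD8 T cells Hilpda had 35.4 and 80.3 CPM and Ndrg1 had 11.8 and 37.3 CPM. In macrophages Hilpda had 39.4 and 41.5 CPM and Ndrg1 had 43.9 and 64.2 CPM. Apoe, a macrophage product, had 43.2 and 111 CPM, beside 2481 and 5067 CPM in the macrophages of the same libraries. The part of free macrophage RNA in the Apoe ratio was not tested.

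Among the lower genes, Tgfb1, which encodes TGF-β1 (chromosome 7, 25687002 to 25705077), had 115 UMIs in 42 cells labelled wt and 33 UMIs in 19 cells labelled cko (216 and 76.2 CPM; log2 ratio −1.50; interval, −2.11 to −0.93). The ratio was −1.57 without cells of another lineage's RNA and −1.52 without the top cells. At equal depth Tgfb1 was seen in 37.9% and 22.6% of NK cells, in 40% and 8.89% of CD8 T cells and in 72.1% and 43.9% of macrophages, so it was lower in the library labelled cko in all 3 classes. Klri2, a lectin chain that pairs with Klre1, had 44 UMIs in 20 cells and 12 UMIs in 9 cells (log2 ratio −1.58; interval, −2.63 to −0.63). Il21r, the receptor for IL-21, had 50 UMIs in 21 cells and 15 UMIs in 10 cells (log2 ratio −1.44; interval, −2.38 to −0.58). Klri2 and Il21r kept ratios below −1 without the top cells and without the cells with RNA of another lineage.

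Some other large ratios moved when single cells or cells with RNA of another lineage were left out. Of the genes seen in at least 10 NK cells of the higher library, Retnlg, a neutrophil gene, had the highest ratio, from 14 UMIs labelled wt to 170 labelled cko, and 93.5% of its UMIs labelled cko lay in 1 cell. By the same limit Mt1, a metallothionein, had the lowest (−2.36), and 75.4% of its UMIs labelled wt lay in the deepest cell of that library. H2-Aa, an MHC class II chain of antigen-presenting cells, had −1.63, and 0.11 without the cells with RNA of another lineage. Isg15, an interferon-induced protein, had −1.84, and −0.43 without them.

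IFN-γ RNA was concentrated in a few cells of the library labelled wt. Ifng had 218 UMIs in 9 cells labelled wt and 29 UMIs in 13 cells labelled cko (log2 ratio −2.61; interval, −3.22 to −2.05), and 71.6% of the UMIs labelled wt lay in 1 cell. Without the top cell per library the ratio was −1.16. At equal depth Ifng was seen in 8.62% and 17.0% of NK cells and in 0.16% and 0.24% of macrophages. The share of cells and the summed level therefore ran in opposite directions, and no order of the libraries is read from them. Gadd45b was the same kind of case (log2 ratio −2.63, with 87.7% of the UMIs labelled wt in 1 cell).

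The chemokines did not move together. Xcl1 had 1679 and 3127 CPM (log2 ratio 0.90; interval, 0.77 to 1.02) and was seen in 36 and 29 cells. The ratio was 1.54 without the cells with RNA of another lineage, 1 of which held 39.0% of the Xcl1 UMIs labelled wt. The median cell had 548 CPM labelled wt and 254 CPM labelled cko, and at equal depth Xcl1 was seen in 56.9% and 49.1% of NK cells, the opposite order to the summed level, so no order of the libraries is read from Xcl1. Ccl5 had 1698 and 2540 CPM (0.58; interval, 0.45 to 0.71), with median cells at 114 and 102 CPM, UMIs in 50% and 41.5% of NK cells at equal depth and 51.9% and 51.5% of the UMIs in 3 cells. No order is read from Ccl5 either. Ccl3 had a log2 ratio of −1.17 that was −0.33 without the cells with RNA of another lineage and −1.86 without its top cells, whereas it was seen in 7 cells labelled wt and 15 labelled cko (10.3% and 18.9% at equal depth), and no order is read from it. Ccl4 had 0.51 that was 2.09 without them, since 1 such cell labelled wt held 69.2% of the Ccl4 UMIs of its group, and it was seen in 13 and 9 cells. Of 9 effector cytokine and chemokine genes measured, 4 were above 0 and 5 below, with a median of −0.14 that was 0.99 when the gate allowed at most 2 C1q UMIs.

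The cytotoxic granule list lay near the median of all genes. Of 18 cytotoxic granule and death ligand genes with enough UMIs, 5 were above 0 and 13 below, none passed 2-fold, and the median was −0.13 beside 0.01 over all genes tested. Without the cells with RNA of another lineage 8 were above 0 and 10 below, and 2 were at least 2-fold lower, Gzma (−1.06) and Gzme (−1.01). Counted without the top cell of each gene the median was 0.06. The deepest cell labelled wt held 68.0% of the Gzme UMIs of its group, and the Gzme ratio moved from −0.92 to −0.24 without its top cells. Gzma had 5780 and 3049 CPM (log2 ratio −0.92; interval, −1.02 to −0.83), and the deepest cell labelled wt held 23.5% of the Gzma UMIs of its group. The Gzma ratio was −0.60 without the deepest cell of each library and −0.29 as a ratio of mean cell CPM. Gzmb had 4016 and 3598 CPM (−0.16; interval, −0.25 to −0.06), but the ratio was 0.10 without its top cells and 0.06 as a ratio of mean cell CPM, so no direction is read from it. Prf1 (perforin) had 257 and 240 CPM (−0.10; interval, −0.48 to 0.28), and Fasl had 109 and 134 CPM (0.30; interval, −0.25 to 0.85).

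Receptor lists were centred near 0. The activating receptors and adaptors had 10 of 21 genes above 0 and a median of −0.01, and the list of inhibitory lectin receptors had 4 of 11 above 0 and a median of −0.11. The 1 gene of that list at least 2-fold lower was Klri2, and whether Klri2 inhibits or activates was not examined here. The gate genes Ncr1 (1099 and 1113 CPM), Klrb1c (364 and 349 CPM) and Klre1 (710 and 730 CPM) are counted in these lists, and their levels describe the gate. Among activating receptors Cd160, a receptor for HVEM and MHC class I, had the largest ratio, with 141 and 270 CPM (log2 ratio 0.94; interval, 0.51 to 1.38). Fcgr3 (CD16), the Fc receptor of antibody-dependent killing, had 218 and 152 CPM (−0.52; interval, −0.97 to −0.07).

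Cytokine receptors had 6 of 12 genes above 0 and a median of −0.03. Il12rb1 and Il12rb2, the chains of the IL-12 receptor, had log2 ratios of −0.13 and −0.12, with intervals that reach from −0.98 to 0.69 and from −0.94 to 0.69. The list of the IL-12, IL-18 and STAT4 axis had 4 of 10 genes above 0 and a median of −0.12, and its 3 genes at least 2-fold lower were Ifng, Gadd45b and Gadd45g, each with most of its UMIs labelled wt in 1 cell. Stat4, the transducer of IL-12, had 88.3 and 94.7 CPM. Cish, a feedback inhibitor of cytokine signals in NK cells, had 18 and 2 UMIs, under the limit for the list.

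Maturation genes were split. The early side had 5 of 9 genes above 0 with a median of 0.11, and Cd27 had 118 and 185 CPM (log2 ratio 0.64; interval, 0.15 to 1.14). The late side had 2 of 7 above 0 with a median of −0.25, and Ly6c2 had −1.39, or −0.53 without the cells with RNA of another lineage. Klf2, on the late side, had 186 and 344 CPM (0.89; interval, 0.51 to 1.27). Transcription factors had 11 of 19 above 0 and a median of 0.06, with Eomes at 113 and 92.4 CPM and Tbx21 at 78.9 and 87.8 CPM. Trafficking and adhesion genes had 9 of 14 above 0 and a median of 0.10, and the 2 at least 2-fold higher were Rgs1 and Rgs2. Rgs2 had a log2 ratio of 1.02, which was 1.74 without the cells with RNA of another lineage, 0.79 without its top cells, 0.74 without the deepest cells and 0.59 as a ratio of mean cell CPM.

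**Figure D5:**
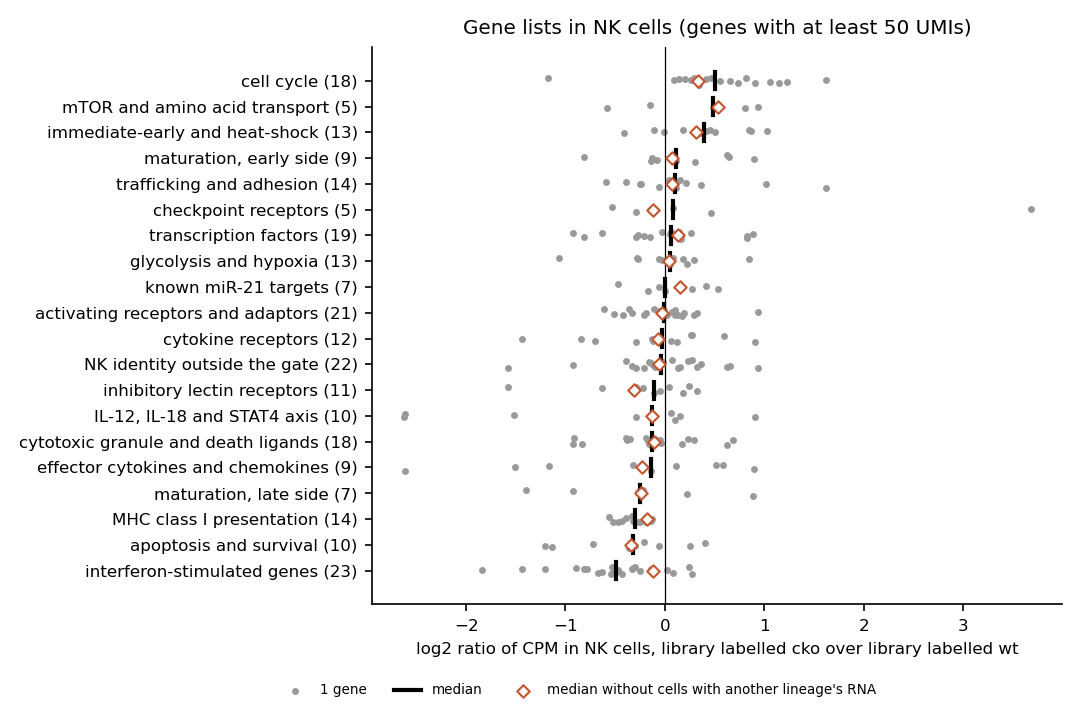
Log2 ratios of CPM in NK cells (x axis, cko over wt) of single genes (grey points) in each list, with the number of genes in parentheses, the median (black bar) and the median without cells that held RNA of another lineage (open diamond). Cell cycle genes lie mostly above 0, MHC class I genes below 0, and the interferon median moves from −0.49 to −0.12 without those cells.

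Cell cycle genes with enough UMIs were mostly above 0. Of 18 cell cycle genes 17 were above 0, with a median of 0.51, 4 at least 2-fold higher and 1 at least 2-fold lower. Without cells with RNA of another lineage the median was 0.33 over 16 genes, with 15 above 0. The summed cell cycle CPM was 1987 and 3044 in NK cells, and it was also higher in the library labelled cko in CD8 T cells (3215 and 4284) and in macrophages (1222 and 1810). Mcm3, part of the replicative helicase, had 37.6 and 87.8 CPM (log2 ratio 1.22; interval, 0.41 to 2.08), and Rrm2, a subunit of ribonucleotide reductase, had 16 and 40 UMIs in 6 cells each (1.62; interval, 0.75 to 2.56), with 0.88 as a ratio of mean cell CPM. The 1 gene below 0 was Ube2c, of whose UMIs labelled wt 87.2% lay in 1 cell.

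Interferon-stimulated genes had 4 of 23 above 0 and a median of −0.49, and without the cells with RNA of another lineage 6 of 16 above 0 and a median of −0.12. Their summed CPM was 5015 and 3598 in NK cells, 8027 and 5565 in CD8 T cells and 8860 and 8159 in macrophages. Irf7 had −1.44 with those cells and 0.06 without them. MHC class I presentation genes had 0 of 14 above 0 and a median of −0.30, and without those cells 1 of 14 was above 0 and the median was −0.18. Their summed CPM was 16793 and 14684 in NK cells, 17254 and 15514 in CD8 T cells and 15417 and 14357 in macrophages. B2m, the light chain of MHC class I, had 6176 and 5631 CPM (log2 ratio −0.13; interval, −0.21 to −0.06), the ratio nearest to 0 of the 14. The ratio furthest from 0 was that of H2-T22 (−0.57), and none of the 14 passed 2-fold.

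Stress and metabolic genes completed the lists. Immediate-early and heat-shock genes had 10 of 13 above 0 and a median of 0.39, among them Fos with 97.7 and 176 CPM (log2 ratio 0.85; interval, 0.32 to 1.38). Glycolysis and hypoxia genes had 8 of 13 above 0 and a median of 0.06. The mTOR and amino acid transport list had 3 of 5 above 0 and a median of 0.49, with Slc3a2, the heavy chain of amino acid transporters, at 124 and 217 CPM. Apoptosis and survival genes had 2 of 10 above 0 and a median of −0.32, and the 2 that were at least 2-fold lower, Bcl2a1b and Bcl2a1d, are near-identical copies whose ratios of −1.13 and −1.20 were −0.69 and −0.60 without the cells with RNA of another lineage. Of the cholesterol synthesis genes 2 had enough UMIs, both at −0.82. Hmgcs1 was at 0.61 without the deepest cells and 0.08 without its top cells, and Fdps was at −0.25 without the cells with RNA of another lineage, so no direction is read for this list. Of the TGF-β list only Tgfb1 had enough UMIs.

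Known targets of miR-21 were described in NK cells because miR-21 is the floxed gene of these mice. Of 7 with enough UMIs 4 were above 0, with a median of 0.00, and none passed 2-fold. Pdcd4 had 177 and 127 CPM (log2 ratio −0.48; interval, −0.98 to 0.02), and Btg2 had 239 and 319 CPM (0.42; interval, 0.06 to 0.78). Spry1 had no UMI in the NK cells of either library.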

How the data were processed

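The authors deposited raw UMI counts per gene and called cell for both libraries (27998 gene rows, of which 56 symbols name more than 1 row). The submitters' processing notes name Cell Ranger, Seurat and the mm10 build. Their versions and settings were not given in the sources used here, and rows of Mir21a and of T cell receptor and immunoglobulin constant genes were not analysed here. UMI counts of the gated cells were summed per library and class and scaled to CPM. Log2 ratios have exact conditional binomial intervals and shares have Clopper-Pearson intervals. The libraries are 1 pool each, so no test across samples was made. Cells were thinned to 3000 UMIs for shares of cells, which left out no cell. A gene entered the comparison between libraries with at least 50 UMIs, and called means at least 2-fold. The state comparison needed at least 20 UMIs. CD8 T cells needed at least 3 Cd3 and 2 Cd8 UMIs, at most 1 NK receptor UMI and at most 5 C1q UMIs. Macrophages needed at least 20 C1q UMIs and no UMI of Cd3d, Cd3e, Cd3g, Ncr1, Klrb1c or Klre1. Low levels of NK genes in the macrophages may follow in part from that gate. Named genes were the 12 highest and 12 lowest ratios between libraries and against CD8 T cells, and genes of 32 lists. Members and lists were chosen with earlier results of these data known. Doublets were not removed from the main values, and Scrublet was run as an alternative. Promoters were credited to RefSeq (GRCm38.p6) and gene positions to the GENCODE annotation. Scripts were tested on simulated data. Tools were Python 3.11.15, numpy 2.4.6, scipy 1.17.1, pandas 2.3.3, scanpy 1.11.5, matplotlib 3.10.9, R 4.3.3 and edgeR 4.0.16, the last for scaling factors only.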

Additional observations from a re-analysis of the deposited data

How the results depend on the processing

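The ratio of NK shares stayed between 0.747 and 0.869 over its alternatives. The number of genes at least 2-fold lower in NK cells labelled cko, 67 as reported, was 28 with each gene counted without its top cell per library, 44 with the mean of cell CPM, and 35 without cells that held RNA of another lineage, an alternative chosen after seeing the data. These totals apply the limit of 50 UMIs again, which left 2243 genes without the top cells and 2339 without cells of another lineage's RNA. Lower count limits changed both numbers by construction, to 142 higher and 237 lower among 5118 genes with at least 20 UMIs, and to 912 higher and 1065 lower among 9744 genes with 1 UMI in each library. With C1q limited to 2 UMIs the log2 ratio of Mt1 was 0.44 and that of Cd14 was −1.56, and H2-Aa had 0.11 without cells that held RNA of another lineage. Of 360 log2 ratios of named genes under alternatives, 325 stayed within their counting intervals, 32 moved and 3 changed sign. Of 312 list medians 311 moved by no more than the median half-width of the counting intervals of single genes in the list. This band is wide, and medians near 0 changed sign within it. The activating receptors kept their sign in 8 of 15 alternatives and the miR-21 targets in 7 of 15. The median of the IL-12, IL-18 and STAT4 axis reached −0.75 in cells with at least 5000 UMIs. That of effector cytokines and chemokines was 0.99 with C1q limited to 2 UMIs. Between the granzyme states, 13 genes instead of 29 were at least 2-fold higher and 43 instead of 26 lower in the Gzmc to Gzmf state in both libraries when each gene was counted without its top cell, an alternative chosen after seeing the data. Of 32 state shares 31 stayed, and of 48 shares of NK cells with a UMI of a gene at another depth 21 stayed and 27 moved. Scrublet removed 3 NK cells labelled wt and 4 labelled cko. No paired analysis was possible because each genotype has 1 library. With 58 and 53 NK cells, depth and cell number leave small differences and sparsely captured genes, some of which are printed above, uncertain.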
